A study of Homo sapiens with 12 samples.

Results

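The genes described here are 35 genes of glucose uptake, glycolysis, lactate handling, the pentose phosphate pathway and the hypoxia-inducible factor (HIF) pathway, chosen by gene symbol from the 46863 rows of the deposited count table. The choice names symbols and sets no threshold on the measured values, although earlier results of these data were known when it was made. RNA was measured in SU-DHL-4, an established human cell line of diffuse large B-cell lymphoma (DLBCL) that was derived from a peritoneal effusion and is labelled as wild type. The cells were exposed for 72 h to DMSO (the control), to 1 µM Ento (entospletinib, an inhibitor of the kinase SYK), to 0.01 µM AZD (AZD5153, a bivalent inhibitor of BET bromodomain proteins), or to both agents at these concentrations (Ento+AZD), with 3 libraries in each of the 4 groups. One cell line in culture was used, so that the values describe this line and no tumour tissue, and the labels number the replicates without saying how the cultures were set up, while the study's methods speak of biologically independent samples in general. The comparison with the single agents serves to ask what the combined exposure adds to each of them.

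Glycolysis splits glucose into pyruvate in the cytosol, and lactate dehydrogenase with the monocarboxylate transporters removes the surplus as lactate. The pentose phosphate pathway branches off after the first step and supplies ribose and NADPH. HIF1 is a transcription factor that is degraded when oxygen is at hand and that, once stable, binds the core letters ACGTG or GCGTG in the promoters of many of these genes, among them transporters, glycolytic enzymes and the mitophagy receptor BNIP3. Germinal-centre type lymphoma cells such as SU-DHL-4 signal through the B-cell receptor, of which SYK is a proximal kinase.

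Total counts per library lay between 18121993 and 24675830, so that 1 count corresponded to 0.0393 to 0.0564 CPM (counts scaled to a fixed library total). CPM values below are normalized by TMM and are levels, whereas log2 fold changes are differences. Of the 35 genes, 34 passed the filter on low counts, together with 16835 genes in all. The exception was EGLN3, a HIF prolyl hydroxylase, with 0 counts in all 12 libraries, which allows up to 3 counts per library or 0.118 to 0.169 CPM. Such limits cover counting error only. B-cell genes marked the line in every group (with DMSO, MS4A1 at 2482 ± 678 CPM and CD79A at 672 ± 177 CPM, SD, n = 3), whereas the T-cell genes CD3D and CD2, the myeloid gene FCGR3A, the epithelial gene KRT8 and the stromal gene COL1A2 were at 0 throughout. Of the other markers of T, myeloid, epithelial and stromal cells, DCN was at 77.02 ± 21.2, CD3E at 1.32 ± 0.412 and ITGAM at 1.10 ± 0.552 CPM with DMSO, and the rest failed the filter on low counts. The 35 genes together took 1.21, 1.26 and 1.61% of all counts with DMSO, 1.22, 1.01 and 1.52% with Ento, 1.57, 1.11 and 1.60% with AZD, and 1.05, 0.886 and 1.17% with Ento+AZD (replicates 1, 2 and 3). The combined exposure thus held the lowest share of each replicate number. In bulk RNA a smaller number of cells of a kind and less RNA per cell cannot be told apart. The mitochondrial ribosomal RNR2 took 1.55 to 1.83% of the counts with DMSO and 2.15 to 2.56% with Ento+AZD, and its part in the results was not tested.

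One control library stood apart in these genes. In DMSO replicate 3, PFKFB4 was 5.62 times, ALDOC 4.63 times, BNIP3 3.52 times and SLC16A3 2.67 times the mean of the other DMSO libraries. These were 4 of the 34 tested genes (11.8%) with a ratio over 2, compared with 1.03% of the 14076 genes that had at least 1 CPM with DMSO. The library was also high in ENO2, at 1.95 times. AZD replicate 2 lay low, with a median deviation of −0.30 (log2) from its group over the 34 genes, against 0.29 for DMSO replicate 3. Replicate number 3 was high in all 4 groups (0.14 to 0.29) and replicate number 2 low in all 4 (−0.30 to −0.09). The model held the replicate number as a term because the study's methods name a batch term. Results that rest on DMSO replicate 3 are given with and without it.

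**Figure D1:**
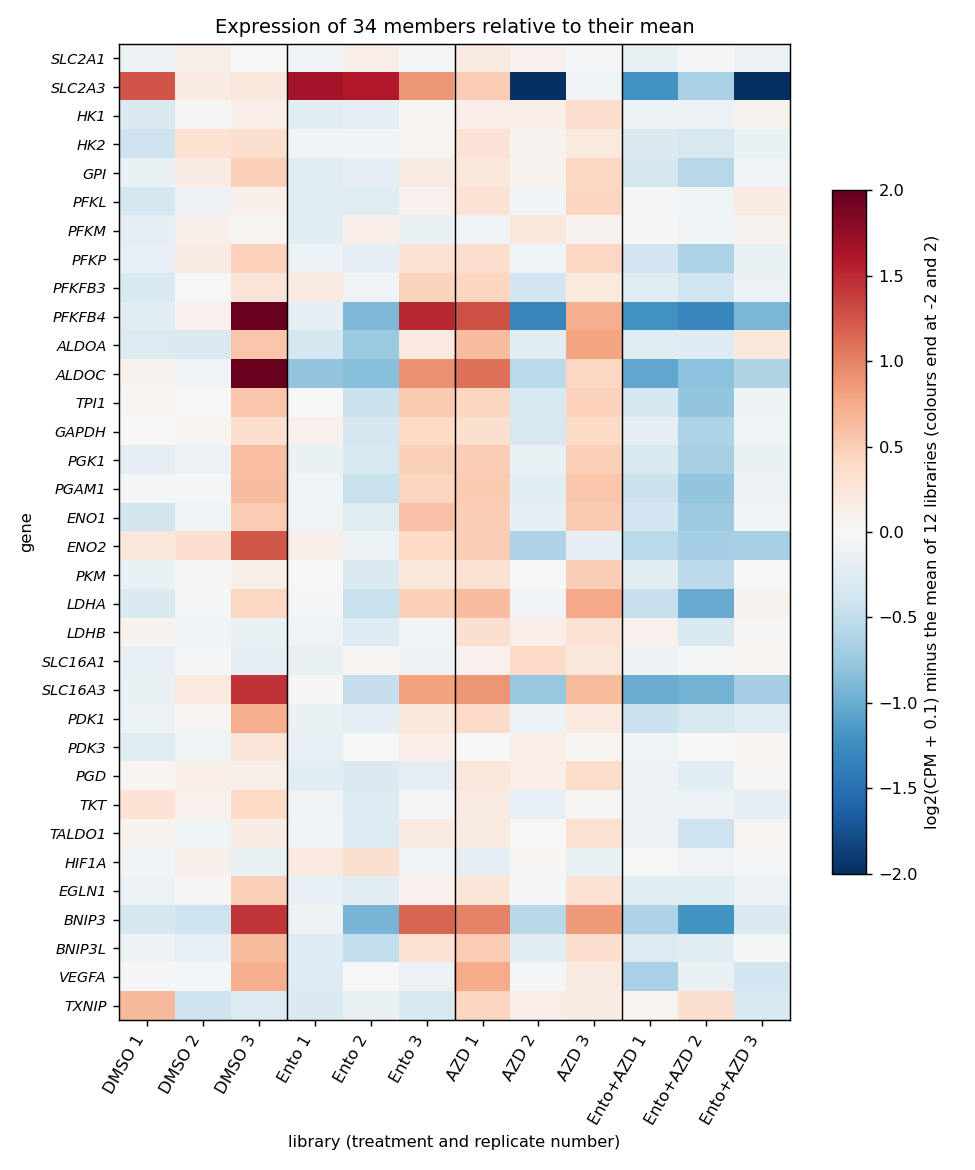
Expression of the 34 tested genes (rows) in the 12 libraries (columns, by treatment and replicate number), as log2(CPM + 0.1) minus the mean of the gene over the 12 libraries. Red is above and blue below that mean. The 3 Ento+AZD columns are pale to blue in most rows, DMSO replicate 3 is the reddest control column, and AZD replicate 2 is bluer than the other AZD columns.

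Per kb of exon, the levels with DMSO spanned a wide range. GAPDH, the glyceraldehyde phosphate dehydrogenase, was highest at 1726 ± 230.4 CPM per kb, followed by LDHB, the lactate dehydrogenase subunit typical of heart and lymphocytes, at 414 ± 31.8 and TPI1, the triose phosphate isomerase, at 246 ± 55.7 (SD, n = 3). ENO1 (177 ± 56.9), PKM (153 ± 12.8) and LDHA (134 ± 34.2) came next and overlapped between libraries, so that their order was not resolved. The lowest of the 34 tested genes were SLC16A3, the lactate exporter MCT4, at 1.13 ± 0.708 and SLC2A3, the neuronal-type glucose transporter GLUT3, at 0.0845 ± 0.0455 CPM per kb. The other glucose transporter among the 35, SLC2A1 (GLUT1), was at 15.2 ± 1.14 CPM per kb.

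After simultaneous Ento+AZD exposure, RNA of many of these genes was lower than with DMSO, although SLC2A1, HK1 and HK2 at the entry of glucose did not pass. Of the 34 tested genes 21 (61.8%) fell and none rose against DMSO (edgeR's quasi-likelihood test, Benjamini-Hochberg adjusted p under 0.05), while 20.8% of all 16835 genes fell and 19.2% rose. All 6 genes of lower glycolysis and all 3 of the pentose phosphate pathway fell, as did 4 of 9 in upper glycolysis, 2 of 4 of lactate handling, 1 of 2 pyruvate dehydrogenase kinases and 3 of 5 tested HIF pathway genes. Of the 2 glucose transporters 1 fell (SLC2A3, with few reads), and of PFKFB3 and PFKFB4 1 fell. The median log2 fold change of the 34 was −0.37, compared with 0.01 over all genes. With a fold change over 2 in addition, which defines a DEG, 5 were downregulated, namely SLC2A3, PFKFB4, ALDOC, SLC16A3 and ENO2 (4.89% of all genes were downregulated DEGs). In 12 of the 34 every Ento+AZD library lay below every DMSO library, as in 20% of all genes. The calls depended on the replicate number as a term. Without this replicate block only ENO2 (log2 fold change −1.31, adjusted p = 0.0179) and TKT (−0.39, adjusted p = 0.0357) passed, 2 of 34 where 14.2% of all genes passed in the same fit. Without DMSO replicate 3, 16 of the 21 passed, and ALDOC (adjusted p = 0.0545), ENO1 (0.0806), EGLN1 (0.0938), BNIP3 (0.0896) and VEGFA (0.224) did not. Without Ento+AZD replicate 3, 12 passed. Of all genes 35.3% passed without DMSO replicate 3 and 28.3% without Ento+AZD replicate 3, counted in either direction.

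**Figure D2:**
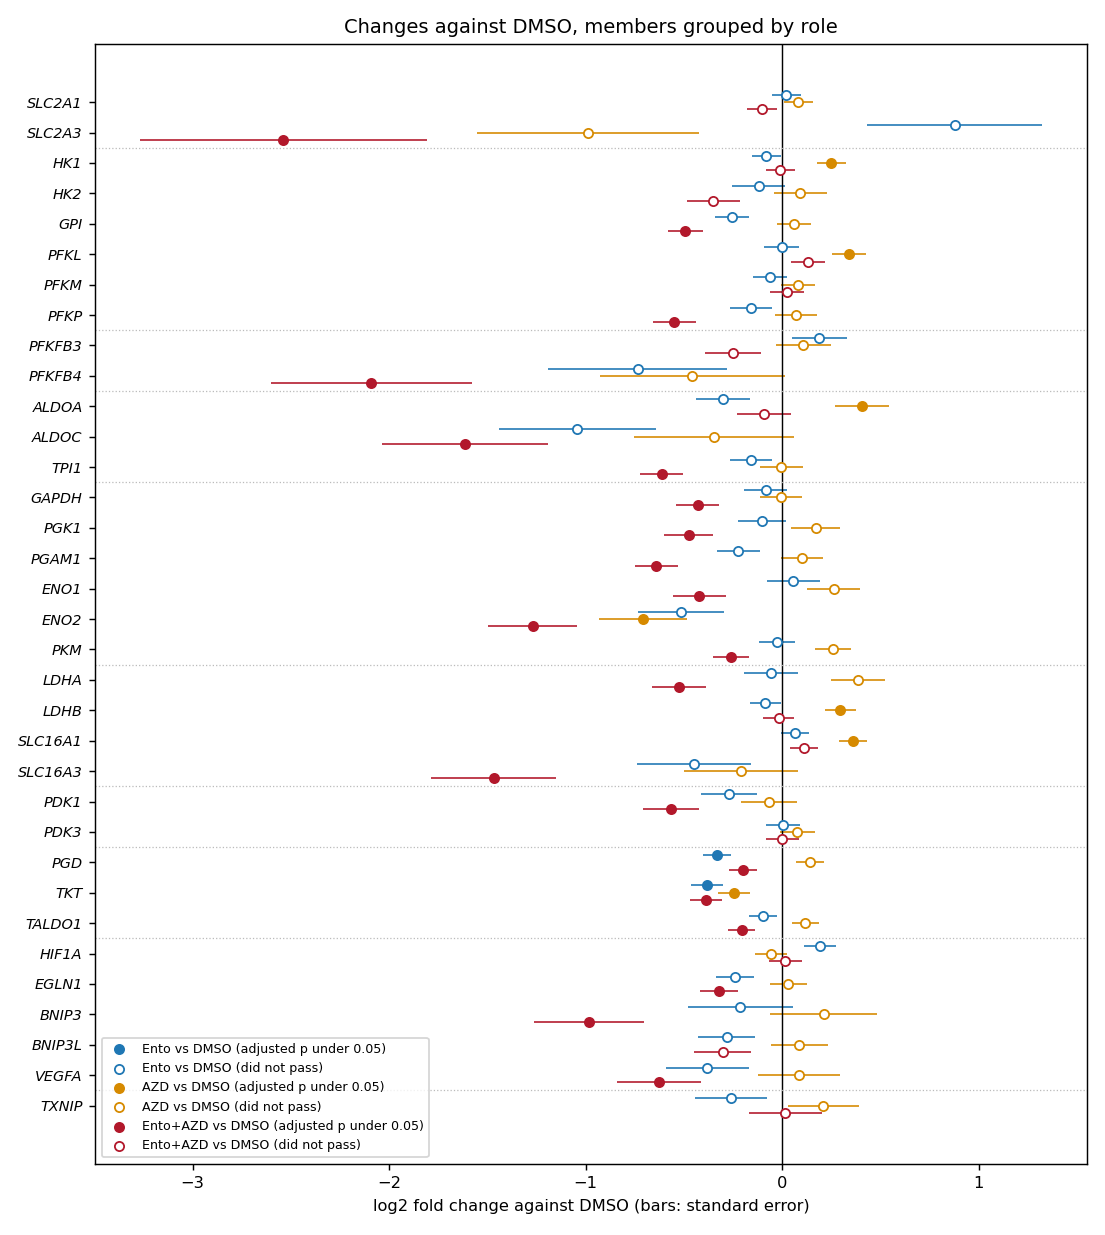
Log2 fold change (horizontal axis) of each tested gene against DMSO after Ento (blue), AZD (orange) and Ento+AZD (red), with the standard error as bar. Filled points passed an adjusted p of 0.05 and open points did not, and dotted lines separate the roles. The red points lie left of 0 for 28 of 34 genes, down to −2.54 for SLC2A3, while filled orange points lie on both sides.

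The HIF core letters were looked up in the RefSeq promoter windows (250 bases before to 50 after a gene's start, GRCh38.p14), because HIF1 is a textbook regulator of many of these genes and 21 of them moved in the same direction. Windows were found for 31 of the 35 genes, and SLC2A3, SLC16A1, BNIP3L and VEGFA had none. The letters ACGTG, read on both strands, were in a window of 19 of the 31 (61.3%), compared with 32.0% of the 10473 tested genes with a window and 24.9% of all 27305 genes. GCGTG was in 20 (64.5%), against 56.7% and 40.6%. Genes with several windows have more chances. Per window the shares for ACGTG were 39.0% for these genes and 21.4% for all genes, tested or not. The E-box CACGTG, which contains ACGTG and is read by MYC and by the glucose sensor MondoA, was in 7 (22.6%), against 12.5% of tested genes. The carbohydrate response element, a pair of E-boxes 5 bases apart, was in 0 of the 31 and in 0.00955% of tested genes. Among the 19 genes with a window that fell with Ento+AZD 13 held ACGTG, 11 held GCGTG and 16 held either, and among the 11 that did not pass 6 held ACGTG, 9 held GCGTG and 11 held either (EGLN3, with a window, was not tested). The difference between these sets thus ran in opposite directions for the 2 cores. A match describes letters and no binding was measured. The genes were chosen as glucose and HIF pathway genes, many of them known HIF targets. A raised share of the core can thus come from the choice itself and is no result of these data.

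Sequences are given 5′ to 3′. The stretch before the ALDOC start holds an E-box and a GCGTG, both in capitals, and is shown because ALDOC had one of the lowest fold changes with Ento+AZD (chr17:28576949-28577145, minus strand).
ALDOC: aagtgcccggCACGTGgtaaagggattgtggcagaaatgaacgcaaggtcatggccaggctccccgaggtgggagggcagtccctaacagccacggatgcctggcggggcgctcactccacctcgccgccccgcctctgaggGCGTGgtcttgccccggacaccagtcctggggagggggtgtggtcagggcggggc
One of the 5 windows of SLC16A3 holds ACGTG in 2 places, in capitals, close to each other (chr17:82228792-82229041, plus strand).
SLC16A3: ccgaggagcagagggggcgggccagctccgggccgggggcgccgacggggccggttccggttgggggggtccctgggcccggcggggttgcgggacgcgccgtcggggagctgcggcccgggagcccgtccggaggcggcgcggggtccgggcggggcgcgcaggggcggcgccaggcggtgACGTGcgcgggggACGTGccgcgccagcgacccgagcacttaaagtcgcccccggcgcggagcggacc
Matches were not limited to genes that fell, since PFKL and LDHB, which did not pass with Ento+AZD, hold GCGTG and are not shown. PGAM1, TKT and TALDO1 fell and hold neither core in their window. Short stretches around 1 match each are shown for 4 further genes that fell, with the match in capitals and read as ACGTG or GCGTG or as a reverse complement of these. They lie at chr3:48556955-48556979 (PFKFB4, minus strand), chr12:6914452-6914476 (ENO2, plus strand), chr19:34364820-34364844 (GPI, plus strand) and chr10:131982013-131982037 (BNIP3, minus strand).
PFKFB4: agttgggcatGCGTGgtcggaggcc
ENO2: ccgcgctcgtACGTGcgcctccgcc
GPI: actgcctgtaACGTGgaaggtgttc
BNIP3: cgcccctgcgCACGCgcaggcccca

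Among the glucose transporters SLC2A3 (chr12:7919230-8019007, minus strand, GRCh38, as for all genes below) had the lowest fold change of the set but few reads. Counts were 25, 9 and 11 with DMSO, 32, 25 and 15 with Ento, 13, 0 and 7 with AZD, and 2, 4 and 0 with Ento+AZD. The log2 fold change of Ento+AZD was −2.54 ± 0.73 (SE) against DMSO (adjusted p = 0.0128) and −3.41 ± 0.66 against Ento (adjusted p = 0.00293). Pooled over libraries, 45 counts with DMSO stood against 6 with Ento+AZD, a depth-adjusted ratio of 0.163 with a 95% interval of 0.0569 to 0.384 that covers counting error only. All Ento+AZD libraries were below all DMSO and all Ento libraries. Of the reads on SLC2A3 and its pseudogene copies 25.5% were counted on copies, and with these added the fold change against DMSO was −1.09 and did not pass (adjusted p = 0.0822), so the gene is uncertain. Without DMSO replicate 1 it did not pass either (adjusted p = 0.0587), nor without Ento+AZD replicate 1 (adjusted p = 0.0982). SLC2A1 lay between 93.3 and 108 CPM with DMSO and between 90.3 and 97.5 CPM with Ento+AZD, with a log2 fold change of −0.10 that did not pass (adjusted p = 0.293).

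From hexokinase to triose phosphate isomerase GPI, PFKP, ALDOC and TPI1 fell and the other 5 tested genes did not pass. GPI, the glucose phosphate isomerase (chr19:34359480-34402413, plus strand), was at 308, 374 and 469 CPM with DMSO, 288, 293 and 379 with Ento, 389, 354 and 448 with AZD, and 267, 229 and 319 with Ento+AZD. It fell by 0.49 ± 0.09 on the log2 scale with Ento+AZD (SE, adjusted p = 0.00062) and was lower than DMSO in 3 of 3 replicate pairs, although the groups overlapped. Among the phosphofructokinases, PFKP fell from 119 to 183 CPM with DMSO to 85.9 to 121 CPM with Ento+AZD (−0.55 ± 0.11, adjusted p = 0.00135), whereas PFKL and PFKM did not pass (0.13 and 0.03). PFKL, the liver-type subunit (chr21:44300051-44327376, plus strand), was at 144, 168 and 196 CPM with DMSO, 158, 155 and 194 with Ento, 222, 176 and 245 with AZD, and 178, 172 and 205 with Ento+AZD. Its highest values were thus in the AZD group. Of the hexokinases HK1 had a fold change of −0.01 (adjusted p = 0.934), and HK2, the form most tied to HIF and tumours, had −0.35 and missed the threshold (adjusted p = 0.0507).

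ALDOC, the brain-type aldolase (chr17:28573115-28576948, minus strand), was at 46.3, 42.2 and 205 CPM with DMSO, 25.6, 24.3 and 83.7 with Ento, 95.3, 30.2 and 59.2 with AZD, and 21.4, 25.02 and 29.0 with Ento+AZD. All Ento+AZD libraries were below all DMSO libraries, and the log2 fold change was −1.61 ± 0.42 (SE, adjusted p = 0.00738). Without DMSO replicate 3 it was −1.05 (adjusted p = 0.0545), and without Ento+AZD replicate 3 −1.23 (adjusted p = 0.058). ALDOA, the ubiquitous aldolase, had −0.09 and did not pass. This row is uncertain, since 42.8% of its exon bases are shared with a gene on the same strand and 24.8% of the reads on it and its pseudogenes were counted on the pseudogenes.

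TPI1 (chr12:6867119-6870948, plus strand) was at 587, 569 and 838 CPM with DMSO, 579, 424 and 825 with Ento, 769.8, 457 and 786 with AZD, and 448, 330.5 and 536 with Ento+AZD. It fell by 0.61 ± 0.11 on the log2 scale (SE, adjusted p = 0.000561), with no overlap between Ento+AZD and DMSO. Its pseudogenes held 27.1% of the reads on TPI1 and its copies, and TPI1 still passed with these added.

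The bifunctional enzymes PFKFB3 and PFKFB4 set the level of fructose 2,6-bisphosphate, the activator of phosphofructokinase. PFKFB4 (chr3:48517684-48562015, minus strand) was at 12.4, 15.3 and 77.9 CPM with DMSO, 12.6, 7.68 and 41.2 with Ento, 34.9, 5.72 and 23.7 with AZD, and 6.16, 5.77 and 7.56 with Ento+AZD. The control range was wide through replicate 3, and the combined exposure was the only group whose 3 libraries lay within 2 CPM of each other. The log2 fold change with Ento+AZD was −2.09 ± 0.51 (SE, adjusted p = 0.00506), all libraries were below all controls, and without DMSO replicate 3 the value was −1.51 ± 0.53 (adjusted p = 0.0411). Leaving out replicate 3 of every group gave −1.26 (adjusted p = 0.0776). PFKFB3 had −0.25 against DMSO and did not pass (adjusted p = 0.176).

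**Figure D3:**
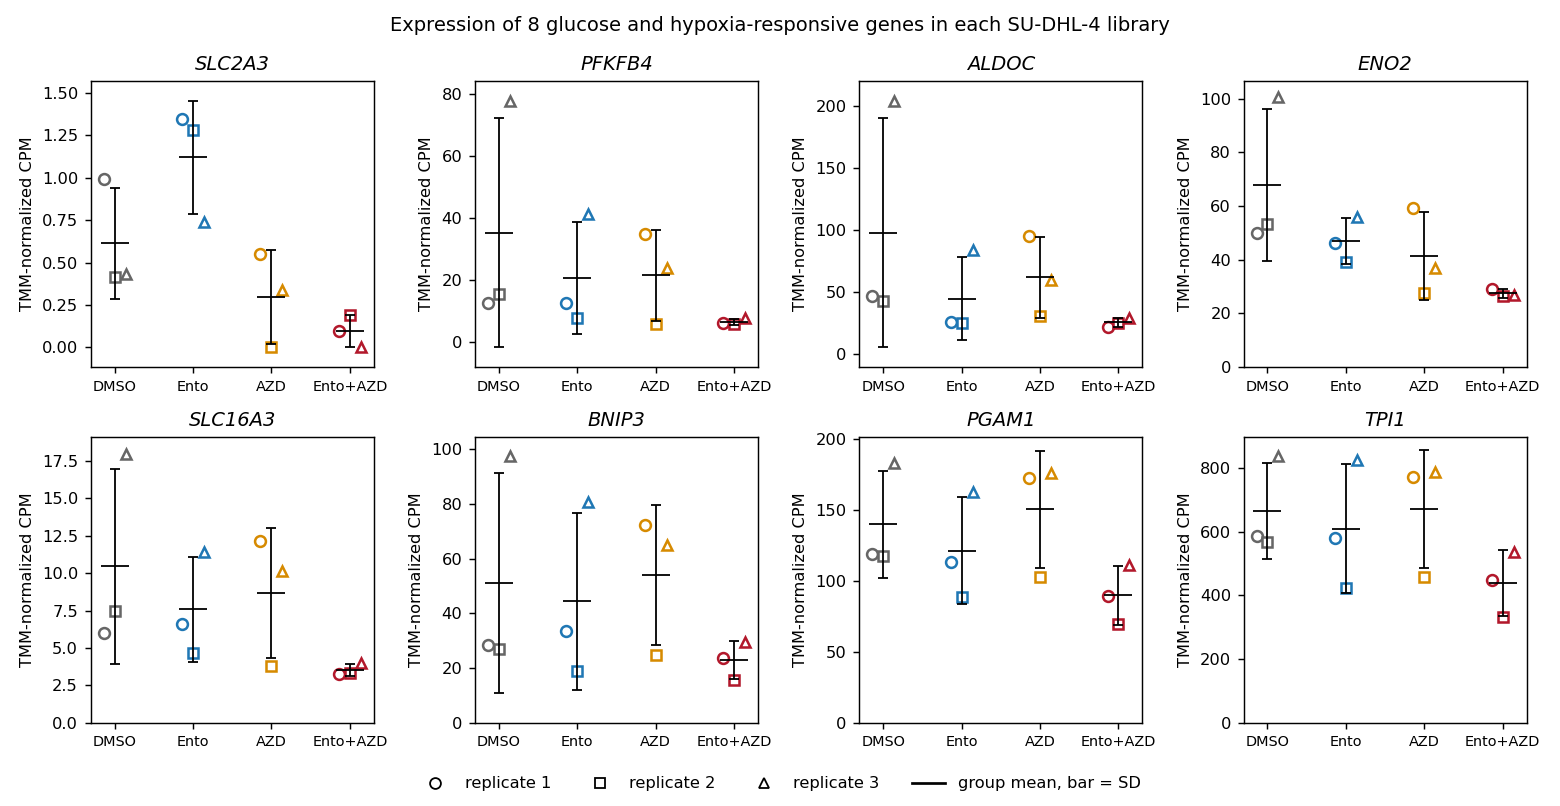
TMM-normalized CPM (vertical axis, linear) of SLC2A3, PFKFB4, ALDOC, ENO2, SLC16A3, BNIP3, PGAM1 and TPI1 in every library by treatment, with symbols for the replicate number and lines for the mean and SD. In all panels but BNIP3 the 3 Ento+AZD libraries lie below the 3 DMSO libraries, and replicate 3 of DMSO (triangle) is the highest control in all panels but SLC2A3.

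All 6 enzymes of lower glycolysis fell with Ento+AZD. PGAM1, the phosphoglycerate mutase (chr10:97426191-97433444, plus strand), was at 118, 117 and 183 CPM with DMSO, 113, 88.1 and 162 with Ento, 172, 102 and 176 with AZD, and 88.8, 69.0 and 111 with Ento+AZD. Its log2 fold change was −0.64 ± 0.11 (SE, adjusted p = 0.000437), and Ento+AZD did not overlap with DMSO. ENO2, the neuron-type enolase (chr12:6913745-6923698, plus strand), was at 49.8, 53.3 and 101 CPM with DMSO, 46.1, 39.0 and 55.9 with Ento, 59.3, 27.5 and 37.0 with AZD, and 29.3, 26.3 and 26.7 with Ento+AZD. It fell by 1.27 ± 0.23 (adjusted p = 0.000597), and it passed under every alternative run for it, with values from −1.55 to −0.90, and −0.94 without DMSO replicate 3. GAPDH, PGK1, ENO1 and PKM fell by less, with log2 fold changes of −0.43, −0.48, −0.42 and −0.26. PGK1, the phosphoglycerate kinase that makes the first ATP of the pathway, lay between 359 and 623 CPM with DMSO and between 259 and 370.1 CPM with Ento+AZD (adjusted p = 0.00745), and missed the threshold without Ento+AZD replicate 3 (adjusted p = 0.0521). ENO1, the ubiquitous enolase, did not pass without DMSO replicate 2 or 3 or Ento+AZD replicate 2 or 3 (adjusted p from 0.0596 to 0.13). PKM, the pyruvate kinase, did not pass without DMSO replicate 2 or any of the Ento+AZD replicates (adjusted p from 0.0633 to 0.259). The calls of ENO1 and PKM were thus each lost without any 1 of 4 libraries. GAPDH, often used as a reference gene, ranged from 3737 to 4766 CPM with DMSO and from 2460.4 to 3569 CPM with Ento+AZD, without overlap (adjusted p = 0.00598).

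Of the 4 genes of lactate handling SLC16A3 and LDHA fell. Whether they differed from LDHB and SLC16A1 was not tested. SLC16A3 (chr17:82217934-82261129, plus strand) was at 5.96, 7.47 and 17.96 CPM with DMSO, 6.60, 4.66 and 11.4 with Ento, 12.1, 3.79 and 10.1 with AZD, and 3.23, 3.34 and 4.01 with Ento+AZD. It fell by 1.47 ± 0.32 on the log2 scale against DMSO (SE, adjusted p = 0.00234), by 1.02 against Ento (adjusted p = 0.0392) and by 1.26 against AZD (adjusted p = 0.0233). Without DMSO replicate 3 the value against DMSO was −1.16 ± 0.34 (adjusted p = 0.0191). No Ento+AZD library reached the lowest DMSO or Ento library, while AZD replicate 2 lay within the range of the combination. LDHA, the subunit that favours lactate formation, lay between 632 and 1035 CPM with DMSO and between 383 and 808 CPM with Ento+AZD. It fell by 0.53 ± 0.14 (adjusted p = 0.00782) and passed whichever single library was left out, but not without the number 2 libraries of every group (−0.28, adjusted p = 0.0985).

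LDHB (chr12:21635342-21757857, minus strand, with 33.4% of its exon bases shared with a gene on the same strand) was at 1343, 1199 and 1164 CPM with DMSO, 1198, 1072 and 1224 with Ento, 1599, 1398 and 1557 with AZD, and 1348, 1038 and 1290.2 with Ento+AZD. SLC16A1, the lactate transporter MCT1 (chr1:112911847-112957593, minus strand), was at 136, 149 and 134 CPM with DMSO, 137, 159 and 142 with Ento, 162, 199 and 177 with AZD, and 143, 151 and 157 with Ento+AZD. Both were highest with AZD and neither passed for Ento+AZD against DMSO (−0.02 and 0.11). PDK1, a kinase that switches off pyruvate dehydrogenase and a HIF target, lay between 96.4 and 174 CPM with DMSO and between 77.7 and 88.6 CPM with Ento+AZD. It fell by 0.57 ± 0.14 (adjusted p = 0.0061), and PDK3, a sister kinase, had 0.00 and did not pass.

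The pentose phosphate genes fell by small amounts. TKT, the transketolase (chr3:53224712-53256052, minus strand), was at 621, 537 and 667 CPM with DMSO, 482, 423 and 495 with Ento, 569, 453 and 519 with AZD, and 472, 471 and 447 with Ento+AZD. Every Ento and Ento+AZD library was below every DMSO library, and the log2 fold change of Ento+AZD was −0.39 ± 0.08 (SE, adjusted p = 0.0019). PGD, the phosphogluconate dehydrogenase (chr1:10398592-10420511, plus strand), was at 170.3, 182 and 179 CPM with DMSO, 141, 135 and 146 with Ento, 193, 181 and 213 with AZD, and 152, 143 and 169 with Ento+AZD. It fell by 0.20 ± 0.07 with Ento+AZD (adjusted p = 0.0372), without overlap. This call was lost without DMSO replicate 2, Ento replicate 1 or 2, AZD replicate 2 or any Ento+AZD replicate (adjusted p from 0.0514 to 0.179). TALDO1, the transaldolase, fell by 0.21 (adjusted p = 0.0292) and did not pass without DMSO replicate 1 or 2 or any Ento+AZD replicate (adjusted p from 0.0516 to 0.124).

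Of the HIF pathway EGLN1, BNIP3 and VEGFA fell, and HIF1A, the regulated subunit of HIF1, did not pass. HIF1A RNA had a log2 fold change of 0.02 with Ento+AZD (adjusted p = 0.9), with libraries from 138 to 146 CPM against 131 to 155 CPM with DMSO. HIF1 activity is set mainly by protein stability, which was not measured here. BNIP3, the mitophagy receptor (chr10:131967684-131981967, minus strand), was at 28.4, 27.1 and 97.7 CPM with DMSO, 33.6, 18.9 and 80.8 with Ento, 72.2, 24.6 and 64.8 with AZD, and 23.6, 15.7 and 29.4 with Ento+AZD. The groups overlapped, and the log2 fold change was −0.98 ± 0.28 (SE, adjusted p = 0.0121) but −0.67 without DMSO replicate 3 (adjusted p = 0.0896) and −0.72 without Ento+AZD replicate 3 (adjusted p = 0.0904). Its pseudogene copies held 27.9% of the reads on BNIP3 and copies. VEGFA, the endothelial growth factor, lay between 48.5 and 82.6 CPM with DMSO and between 31.8 and 45.1 CPM with Ento+AZD. It fell by 0.63 ± 0.21 (adjusted p = 0.0288), but did not pass without DMSO replicate 3 (−0.32, adjusted p = 0.224), without Ento+AZD replicate 1 or 3 (adjusted p = 0.148 and 0.115) or with DESeq2 (adjusted p = 0.0907). EGLN1, the main HIF prolyl hydroxylase, fell by 0.32 (adjusted p = 0.0164; 0.0938 without DMSO replicate 3 and 0.108 without Ento+AZD replicate 3), with 55.8% of its exon bases shared with a gene on the same strand. BNIP3L had −0.30 (adjusted p = 0.113), and TXNIP, the glucose-induced arrestin that lowers glucose uptake, had 0.02 (adjusted p = 0.955).

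With Ento as a single agent the share of called genes was close to that over all genes. None rose and 2 fell of 34 (5.88%), compared with 4.66% and 3.66% of all genes. They were TKT (−0.38 ± 0.08, SE, adjusted p = 0.0113) and PGD (−0.33 ± 0.07, adjusted p = 0.0115), and in both every Ento library was below every DMSO library. Neither passed without the replicate block (adjusted p = 0.199 and 0.182), nor without Ento replicate 1 (0.063 and 0.0527) or Ento replicate 2 (0.0717 and 0.0709). Of all genes 0.214, 2.56 and 2.48% passed in these 3 fits. PGD did not pass without Ento replicate 3 either (0.0519). The median log2 fold change was −0.14 against 0.01 over all genes. Without the filter on low counts 12 of the genes fell, where 7.43% of all genes passed in either direction. With the DMSO and Ento libraries alone 5 fell, where 8.2% of all genes passed. ALDOC had the lowest value, −1.04 ± 0.40, and did not pass (adjusted p = 0.122).

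With AZD as a single agent 5 of the 34 genes rose and 2 fell, while 9.57% of all genes rose and 12.7% fell. The 7 called genes (20.6%) were thus close to the share over all genes (22.2%). The balance of the calls turned to 2 higher and 5 lower without AZD replicate 1, and to 1 higher and 4 lower without replicate 1 of every group. SLC16A1 rose by 0.36 ± 0.07 on the log2 scale (SE, adjusted p = 0.00357), PFKL by 0.34 ± 0.09 (adjusted p = 0.0145) and LDHB by 0.30 ± 0.08 (adjusted p = 0.016). In SLC16A1 and LDHB every AZD library was above every DMSO library, and in PFKL the groups overlapped. HK1 (0.25, adjusted p = 0.029) and ALDOA (0.41, adjusted p = 0.0446) rose with overlap, whereas ENO2 (−0.71, adjusted p = 0.0347) and TKT (−0.25, adjusted p = 0.0422) fell with overlap. None of the 7 had a fold change over 2, while 3.19% of all genes were DEGs. ENO2 was lower than DMSO in 2 of 3 replicate pairs. Without the replicate block none of the 7 passed, where 1.94% of all genes passed. In the fit of the DMSO and AZD libraries alone only SLC16A1 passed (14.5% of all genes). Without the filter on low counts 12 genes passed (13.7% of all genes). Leaving out DMSO replicate 3 took the calls of ENO2 (−0.38, adjusted p = 0.226), LDHB (0.23, adjusted p = 0.0547) and TKT (−0.18, adjusted p = 0.166), and leaving out AZD replicate 3 left SLC16A1 alone. Leaving out AZD replicate 2 left 3 calls. SLC16A1 was the only gene of the 7 that passed whichever single library was left out. PFKL was lost without DMSO replicate 1, AZD replicate 1 or AZD replicate 3 (adjusted p from 0.0589 to 0.0744), and HK1 without DMSO replicate 1 or any AZD replicate (0.0732 to 0.111). With library sizes alone as scaling, HK1 (adjusted p = 0.0776) and ALDOA (0.0944) did not pass.

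Ento+AZD against the single agents shares the Ento+AZD libraries with the comparison above. Against AZD 21 of 34 genes fell and none rose, compared with 6.04% and 5.85% of all genes, and the median was −0.47. SLC16A3 (−1.26 ± 0.32, adjusted p = 0.0233) and BNIP3 (−1.19 ± 0.28, adjusted p = 0.0154) were the DEGs (0.422% of all genes were downregulated DEGs). LDHA fell by 0.91 ± 0.14 (adjusted p = 0.00187), PGAM1 by 0.74 ± 0.11 (adjusted p = 0.00152) and GPI by 0.55 ± 0.09 (adjusted p = 0.00232). LDHB (−0.31) and SLC16A1 (−0.25), which AZD alone had raised, fell too (adjusted p = 0.0201 and 0.0356). In 13 genes every Ento+AZD library was below every AZD library, as in 7.99% of all genes. PFKFB4 (−1.63, adjusted p = 0.0547) and ALDOC (−1.27, adjusted p = 0.0648) missed the threshold. None of the 21 passed without the replicate block, where 0.101% of all genes passed. Without AZD replicate 1 and also without Ento+AZD replicate 1, 10 passed (3.44% and 4.96% of all genes). Without Ento+AZD replicate 3, 12 passed (6.52% of all genes).

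Against Ento 11 of 34 genes fell and none rose, compared with 12.2% and 8.27% of all genes. SLC2A3 and SLC16A3 were DEGs (2.47% of all genes were downregulated DEGs), as the values above show. ENO2 fell by 0.75 ± 0.23 (SE, adjusted p = 0.0302) and TPI1 by 0.45 ± 0.11 (adjusted p = 0.00934), and PFKFB3 passed here (−0.44, adjusted p = 0.0416). No pentose phosphate gene passed, with TKT at 0.00 and PGD at 0.13. The call number varied with single libraries, from 1 without Ento replicate 3 to 15 without DMSO replicate 1, with 4 without Ento replicate 1, 6 without Ento replicate 2, and 3, 7 and 3 without Ento+AZD replicate 1, 2 and 3. Of all genes 8.13% passed without Ento replicate 3 and 21.3% without DMSO replicate 1. The shares were 10.5 and 16.8% without Ento replicate 1 and 2, and 11.9, 17.1 and 10.9% without Ento+AZD replicate 1, 2 and 3. In those fits the called part of the 34 genes was close to the share over all genes. None of the 11 passed without the replicate block, where 1.22% of all genes passed. Of the 34 genes 18 passed without the filter (12.5% of all genes) and 19 in the fit of both groups alone (27.4% of all genes).

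The single agents were also compared directly with each other, a comparison added after the data were seen. With AZD 9 of the 34 genes were higher than with Ento and 1 was lower, compared with 5.73% and 8.99% of all genes. PGD differed by 0.47 ± 0.07 on the log2 scale (SE, edgeR's quasi-likelihood test, adjusted p = 0.000458), with 193, 181 and 213 CPM with AZD and 141, 135 and 146 CPM with Ento, without overlap. It was the one gene of the 10 that also passed without the replicate block, where 3.2% of all genes passed. ALDOA was 0.71 ± 0.14 higher with AZD (adjusted p = 0.00307, 3 of 3 pairs, an uncertain row), LDHA 0.44 ± 0.14 (adjusted p = 0.0442), LDHB 0.38 ± 0.08 (adjusted p = 0.00444) and HK1 0.33 ± 0.08 (adjusted p = 0.009). SLC2A3 was the gene that was lower, at −1.87 ± 0.52 (adjusted p = 0.0265), with 13, 0 and 7 counts with AZD and 32, 25 and 15 with Ento. Leaving out single libraries gave between 4 (without Ento replicate 1) and 14 called genes (without DMSO replicate 1 or 3). Of all genes 7.64% passed without Ento replicate 1, and 16.2 and 17.6% without DMSO replicate 1 and 3.

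Whether the agents add up was tested as the interaction, the AZD effect in the presence of Ento minus the AZD effect in its absence. No gene of the 34, and none of the 16835, passed the adjusted threshold in edgeR's quasi-likelihood test (smallest adjusted p of the 34 = 0.444). At an unadjusted p under 0.05 there were 14 of 34 (41.2%), against 9.81% of all genes, all with negative values. LDHA had the smallest p of the 34 and an interaction of −0.85 (adjusted p = 0.444), and ENO1 had −0.74 and PKM −0.49. DESeq2 gave 12 of the 34 at an unadjusted p under 0.05, against 7.12% of all genes, and called LDHA (−0.85, adjusted p = 0.0268) among 7 genes in all. Without the filter on low counts edgeR called 12 of the genes and 0.9% of all genes, and without DMSO replicate 2 it called 3 of the genes and 1.23% of all.

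Within a library, shares of isoenzymes do not depend on the scaling between libraries. They are given per kb of exon as a description, without a test. ALDOC made up 67.3 ± 11.1% of aldolase RNA with DMSO, 56.8 ± 9.87% with Ento, 54.9 ± 8.08% with AZD and 43.5 ± 2.47% with Ento+AZD (SD, n = 3), subject to the uncertainty of ALDOA. The lowest DMSO library was at 59.8% and the highest Ento+AZD library at 46.3%. PFKP made up 28.9 ± 2.21% of phosphofructokinase RNA with DMSO, 27.4 ± 3.58% with Ento, 27.3 ± 3.30% with AZD and 21.1 ± 1.82% with Ento+AZD. All Ento+AZD libraries (19.3 to 22.9%) lay below the lowest library of any other group (23.5%, an AZD library). PDK1 made up 67.4 ± 2.97% of PDK1 and PDK3 with DMSO and 58.5 ± 0.527% with Ento+AZD, again below all 9 other libraries.

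LDHA made up 24.5 ± 5.85% of LDHA and LDHB with DMSO and 18.7 ± 4.36% with Ento+AZD, with overlap. HK2 made up 49.4 ± 3.80% of HK1 and HK2 with DMSO and 43.9 ± 0.108% with Ento+AZD, where the 3 libraries were nearly equal and below all others. ENO2 made up 8.10 ± 0.823% of the enolases with DMSO, 5.72 ± 0.722% with Ento, 4.34 ± 1.05% with AZD and 4.79 ± 0.989% with Ento+AZD, so its share was already low with AZD alone. SLC16A3 went from 4.91 ± 3.08% of SLC16A1 and SLC16A3 with DMSO to 1.58 ± 0.120% with Ento+AZD.

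**Figure D4:**
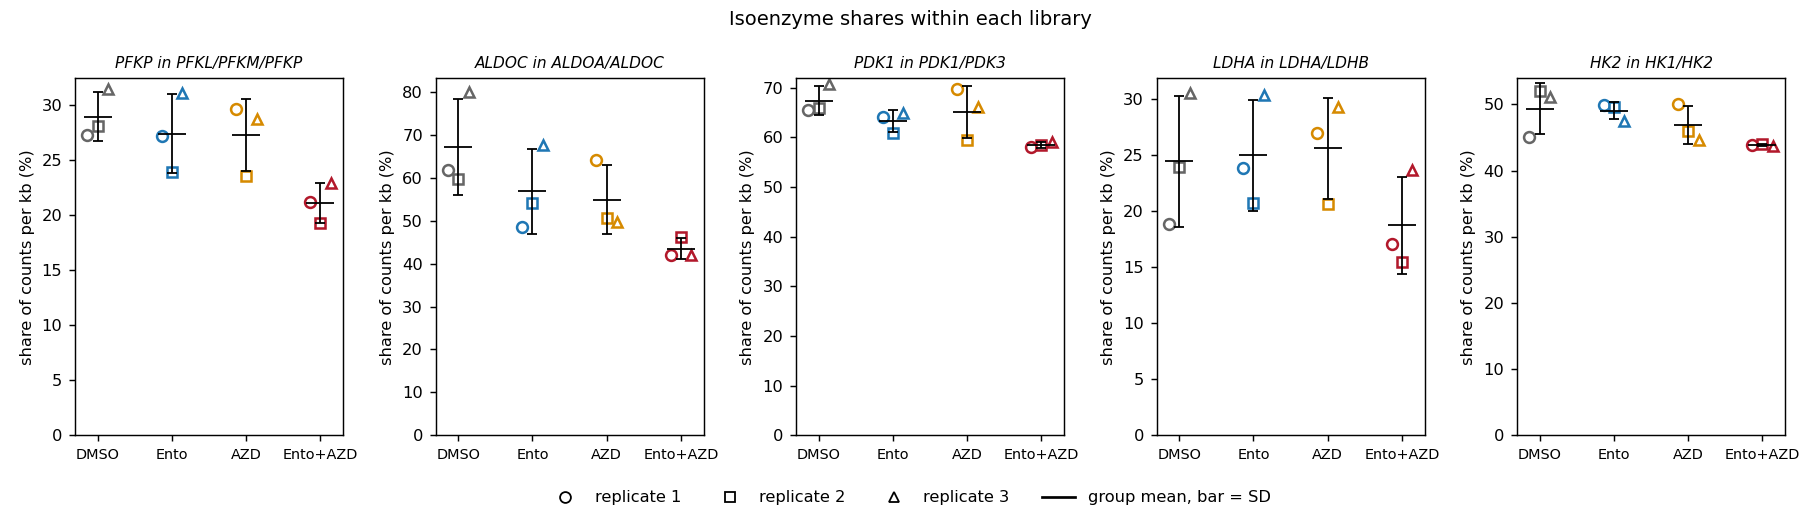
Share of one isoenzyme in its pair or trio (vertical axis, percent of CPM per kb) in every library by treatment, with mean and SD. From left to right the panels show PFKP, ALDOC, PDK1, LDHA and HK2. The Ento+AZD libraries are the lowest of all in the panels of PFKP, ALDOC, PDK1 and HK2, and overlap with the other groups for LDHA.

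A wider list of 84 further genes of these pathways had 58 tested genes, of which 15 rose and 19 fell with Ento+AZD against DMSO, where 19.2% of all genes rose and 20.8% fell. Without the replicate block 15 in all passed, where 14.2% of all genes passed. With Ento 4 rose and 9 fell (4.66% and 3.66% of all genes), and with AZD 10 rose and 6 fell (9.57% and 12.7% of all genes). The further hypoxia-induced genes had 7 falls and 1 rise among 13 tested, and the pyruvate entry and dehydrogenase genes 4 falls among 13. Without DMSO replicate 3 the whole list had 14 rises and 16 falls, where 35.3% of all genes passed. That fit was not counted by role. The other pentose phosphate enzymes differed from the 3 above, with 3 rises and no fall among 5. DDIT4, a stress-induced inhibitor of mTORC1, went from 167 ± 52.5 to 48.6 ± 5.00 CPM (SD, n = 3) and fell by 1.71 ± 0.26 on the log2 scale (SE, adjusted p = 0.000189). PCK2, the mitochondrial phosphoenolpyruvate carboxykinase, fell by 1.31 ± 0.18 (adjusted p = 9.33e-05), and KHK, the ketohexokinase, by 1.13 ± 0.15 (adjusted p = 5.78e-05). MIR210HG, the host transcript of a hypoxia-induced microRNA, went from 10.1 ± 10.5 to 2.97 ± 1.80 CPM with overlap (−1.61, adjusted p = 0.0351), and did not pass without DMSO replicate 3 (adjusted p = 0.235).

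Genes of the same families rose as well. PFKFB2, another fructose 2,6-bisphosphate enzyme, went from 8.22 ± 4.49 CPM with DMSO to 20.1 ± 6.06 CPM with Ento+AZD (1.37 ± 0.18, SE, adjusted p = 6.93e-05), and SLC2A6, a transporter of the same family as GLUT1, from 46.2 ± 22.1 to 97.2 ± 23.1 CPM (1.16 ± 0.19, adjusted p = 0.000278). Both had all Ento+AZD libraries above all DMSO libraries, and neither passed without the replicate block (adjusted p = 0.0949 and 0.0909). AK4, a mitochondrial adenylate kinase listed among the hypoxia-induced genes, rose from 0.403 ± 0.0746 to 0.980 ± 0.363 CPM (1.25 ± 0.31, adjusted p = 0.00514). PFKFB1 had 0.67 ± 0.23 at about 1 CPM (adjusted p = 0.0305), and lost this call without DMSO replicate 1 or 3 and without Ento+AZD replicate 1 or 3.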

How the data were processed

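Polyadenylated RNA of SU-DHL-4 had been sequenced as single reads, which the authors trimmed (cutadapt, Trim Galore), aligned to GRCh38.p13 and counted with Rsubread. The processing notes also list the build hg19, without a role. The count table deposited by the authors gives raw read counts per gene symbol, without normalization. A second table deposited by the authors holds log2 values of 16226 genes, which match log2 CPM computed by edgeR (prior count 2) within 5e-09, and was not used for tests. Strand use, the treatment of reads that match several genes and the annotation release were not given in the sources used here, so genes with pseudogene copies or overlapping exons are uncertain (14 of the 35 overlap on the opposite strand, 9 on the same strand).

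Counts were analysed with edgeR 4.0.16 in R 4.3.3. Genes were filtered with filterByExpr by group (minimum count 10, minimum total 15) and normalized by TMM. Treatment group and replicate number were terms of one model of all 12 libraries. The study's methods do not say that its batch is the replicate number, so this was assumed here. With Ento+AZD 1401 genes were DEGs against DMSO, more than the study reports. Each contrast was given a quasi-likelihood test in edgeR. P-values were adjusted over 16835 genes by the Benjamini-Hochberg method and held against 0.05. The standard error of a log2 fold change was taken as its size over the root of the F value. Replicate numbers come from the titles, and the study's methods name a batch term. Libraries of the same number deviated together from their group means (correlations 0.22 to 0.716, 18 pairs), and the numbers were taken as pairing the libraries. Those of different numbers were at −0.640 to 0.336 (36 pairs). Deviations from a group mean cancel out within the group, so these lower values follow in part from the construction. Libraries of a group differed by more than sampling noise (chi-square per degree of freedom 8.57 to 51.8, 12 pairs).

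The genes, the wider list and the tests were chosen with earlier results of these data known. Values in every library and full statistics are given for genes that were a DEG in any of the 6 contrasts or were among the 3 smallest adjusted p against DMSO. Of the wider list, the genes named are the 4 that rose most and the 4 that fell most among those called with Ento+AZD, and SLC2A5. Exon lengths and overlaps came from GENCODE v44 on GRCh38. The alternatives were DESeq2 1.42.0, other scalings, no filter, no replicate block, the compared groups alone, pseudogene copies added and each library left out. The script was tested on simulated data with known changes.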

Additional observations from a re-analysis of the deposited data

How the results depend on the processing

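No called gene changed direction under any alternative run. RLE size factors, library sizes without scaling factors and pseudogene copies added left each number of called genes within 1.5 times, and the scalings moved the median of all genes by less than 0.1 (log2). The contrasts are named in the order Ento, AZD and Ento+AZD against DMSO, Ento+AZD against Ento and against AZD, the interaction, and AZD against Ento, which was added after the data were seen. The numbers of the 34 genes called were 2, 7, 21, 11, 21, 0 and 10. Without the replicate block they were 0, 0, 2, 0, 0, 0 and 1, and with a fold change over 2 in addition 0, 0, 5, 2, 2, 0 and 1. Of all genes 0.214, 1.94, 14.2, 1.22, 0.101, 0 and 3.2% were called without the block. With the fold change in addition the shares were 1.63, 3.19, 8.32, 3.35, 1.68, 0 and 3.21%. No filter gave 12 (Ento), 12 (AZD), 18 (against Ento), 12 (interaction) and 19 (AZD against Ento). In the same order 7.43, 13.7, 12.5, 0.9 and 10.1% of all genes were called. The compared groups alone gave 5 (Ento), 1 (AZD), 19 (against Ento) and 19 (AZD against Ento), a fit that was not run for the interaction and in which SLC2A3 did not pass the filter for Ento+AZD against DMSO. In the same order 8.2, 14.5, 27.4 and 24.4% of all genes were called. DESeq2 called 1 gene for the interaction. Leaving out single libraries gave 0 to 6, 1 to 9, 12 to 23, 1 to 15, 10 to 23, 0 to 3 and 4 to 14 genes.

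Chosen after seeing the data, leaving out replicate 1, 2 or 3 of every group gave 0, 1 and 0 (Ento), 5, 7 and 1 (AZD), 20, 16 and 8 (Ento+AZD against DMSO), 12, 7 and 1 (against Ento), 7, 19 and 13 (against AZD) and 2, 7 and 4 (AZD against Ento). Of all genes 2.54, 3.58 and 3.43% were called for Ento in these fits, and 14.4, 15.1 and 5.82% for AZD. For Ento+AZD the shares were 27.1, 31.6 and 26.8% against DMSO, 8.24, 16.8 and 6.38% against Ento, and 1.22, 6.36 and 6.07% against AZD. For AZD against Ento they were 6.41, 10.4 and 5.32%. Without number 3 the 8 and 1 of 34 genes called for Ento+AZD against DMSO and against Ento were not above these shares. Without DMSO replicate 3 and AZD replicate 2 together the numbers were 1, 2, 15, 13, 25, 0 and 11. The shares over all genes were then 4.56, 6.5, 33.7, 22.2, 7.62, 0 and 11.3%. Of the 58 further pathway genes 13, 16 and 34 were called against DMSO. The numbers were 0, 1 and 15 without the replicate block and 0, 0 and 8 with a fold change over 2 in addition. They were 21 without the filter (Ento) and 8 in the compared groups alone (AZD). Leaving out single libraries gave 1 to 14, 4 to 21 and 24 to 37. Leaving out replicate 1, 2 or 3 of every group gave 7, 3 and 5 (Ento), and without number 3 AZD gave 4. Without DMSO replicate 3 and AZD replicate 2 the numbers were 5 and 6. The cause of these changes was not tested. The fits that leave libraries out also hold fewer libraries, and the part of this in the changes was not tested either.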

Other observations

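One gene of the wider list, SLC2A5, the fructose transporter GLUT5, was chosen after its values were seen. It was at 178 ± 45.9 CPM with DMSO, 340.3 ± 30.3 CPM with Ento, 140.2 ± 31.1 CPM with AZD and 232 ± 37.0 CPM with Ento+AZD (SD, n = 3). It rose with Ento (0.97 ± 0.09, adjusted p = 3.09e-05), fell with AZD (adjusted p = 0.0162) and rose with Ento+AZD against DMSO by 0.40 ± 0.09 (adjusted p = 0.00265). All Ento libraries were above all DMSO libraries. The AZD libraries (108 to 170 CPM) and the Ento+AZD libraries (193 to 266 CPM) overlapped with DMSO (130 to 221 CPM). The calls of SLC2A5 were not checked under the alternatives.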
